A study of Mus musculus with 2 samples.

Results

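The promoters of 8 genes, Sfi1, Evi5l, Ccdc191, Gm15287, Mtrf1l, Dmrt1i, Slc25a42 and Atf7, carried among the strongest SRCAP peaks outside repeat sequence in mouse embryonic stem cells. They were chosen by their peak scores in both replicates, so the scores and ranks below describe the choice and were not tested. A promoter here reaches from 1000 bp before any annotated transcription start site (TSS) to 500 bp past it. The 8 genes stand among 55413 annotated nuclear genes, and their main peaks are 8 of 6158 peaks in replicate 1 and 8 of 12958 in replicate 2. All 8 had a promoter peak in each replicate, which the choice fixed. The share of all nuclear genes with such a peak was 7.48% in replicate 1, 14.6% in replicate 2 and 5.64% when a peak was required in both lists.

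The study asked where the remodeler SRCAP lies on chromatin and how its loss acts on gene regulation. SYAT cells come from 1 homozygous knock-in clone of CGR8 mouse embryonic stem cells (mESC). Both of their Srcap alleles end in a fusion to YPet, a yellow fluorescent protein, and to an auxin-inducible degron (AID), and a lentiviral construct with the EF1a promoter, introduced into that clone, expresses the auxin receptor OsTir1. The transduced cells were selected for the construct and sorted for loss of YPet after auxin, and no further cloning is described. Both samples are SYAT cells kept with auxinole, which blocks basal degradation of SRCAP, in serum medium with leukemia inhibitory factor (LIF) for the last days of culture. All SRCAP in them is thus the tagged protein, and no auxin-treated or untagged cells were analysed here. CUT&Tag was run on 200000 cells per sample with 10000 Drosophila nuclei added as a spike-in. An anti-GFP antibody that also binds YPet brought the Tn5 transposase to the tagged protein, and the cut fragments were sequenced. Per the reporting form of the study, replicates came from independent cultures. The files hold peaks and no expression values, so the labelled cell type could not be checked against marker genes. A peak from a cell population also does not tell more cells with SRCAP at a promoter from more SRCAP per cell.

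SRCAP is the catalytic ATPase of a complex that swaps histone H2A for the variant H2A.Z in nucleosomes. H2A.Z is known for its place in the nucleosomes that flank active promoters. Many promoters of mammals are CpG-rich and start transcription at several nearby positions, often on both strands, and short motifs such as GC boxes and CCAAT boxes recur in them.

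The sequences below show the middle 300 bases of the stretch that both replicates called at 5 of the promoters. Sfi1 is shown for the highest scores, Slc25a42 and Mtrf1l for peaks that lay mostly upstream of the gene with repeated motif matches, Evi5l for the lowest GC content, and Gm15287 for a noncoding start inside the peak. Each runs 5′ to 3′ on the strand of the gene and was read from GRCm38, the assembly of mm10. Capitals mark matches, on either strand, to the motifs described further on, so that CCAAT also appears as ATTGG and GGGCGG as CCGCCC. The windows are chr11:3193067-3193366 on the minus strand for Sfi1, chr8:70212498-70212797 on the minus strand for Slc25a42, chr10:5823993-5824292 on the minus strand for Mtrf1l, chr8:4166107-4166406 on the plus strand for Evi5l and chr13:111725436-111725735 on the plus strand for Gm15287.
Sfi1: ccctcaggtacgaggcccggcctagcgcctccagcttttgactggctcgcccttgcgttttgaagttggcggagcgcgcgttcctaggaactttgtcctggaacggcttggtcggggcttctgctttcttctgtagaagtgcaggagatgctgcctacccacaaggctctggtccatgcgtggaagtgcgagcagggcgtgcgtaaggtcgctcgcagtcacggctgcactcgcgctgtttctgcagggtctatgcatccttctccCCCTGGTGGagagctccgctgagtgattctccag
Slc25a42: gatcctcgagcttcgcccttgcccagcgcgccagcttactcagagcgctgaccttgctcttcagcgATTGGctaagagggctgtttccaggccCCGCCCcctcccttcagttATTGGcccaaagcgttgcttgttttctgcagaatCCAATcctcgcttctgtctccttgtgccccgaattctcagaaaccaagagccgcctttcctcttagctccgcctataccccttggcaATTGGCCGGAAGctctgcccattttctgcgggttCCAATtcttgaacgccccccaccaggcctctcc
Mtrf1l: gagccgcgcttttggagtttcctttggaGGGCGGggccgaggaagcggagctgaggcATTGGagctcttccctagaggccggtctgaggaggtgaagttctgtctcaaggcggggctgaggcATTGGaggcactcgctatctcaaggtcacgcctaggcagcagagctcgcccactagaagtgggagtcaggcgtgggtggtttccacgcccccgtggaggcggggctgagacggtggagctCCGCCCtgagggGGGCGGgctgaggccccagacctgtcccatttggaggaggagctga
Evi5l: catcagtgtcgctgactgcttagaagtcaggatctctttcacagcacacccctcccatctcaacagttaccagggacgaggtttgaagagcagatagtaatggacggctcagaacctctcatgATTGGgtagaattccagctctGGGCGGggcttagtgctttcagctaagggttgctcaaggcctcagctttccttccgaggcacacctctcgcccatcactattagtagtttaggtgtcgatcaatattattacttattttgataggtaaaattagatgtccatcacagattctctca
Gm15287: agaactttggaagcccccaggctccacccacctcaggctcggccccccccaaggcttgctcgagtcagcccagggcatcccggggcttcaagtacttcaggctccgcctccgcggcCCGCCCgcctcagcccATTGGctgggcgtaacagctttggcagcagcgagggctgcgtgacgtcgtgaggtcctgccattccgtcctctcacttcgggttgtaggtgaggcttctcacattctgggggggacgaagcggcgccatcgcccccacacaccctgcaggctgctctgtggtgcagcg

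Sfi1 stood apart from the other promoters in score. The score is a whole number from the peak caller, which was read as 10 times the −log10 q-value because its minimum was 13 in both lists, and read depth was unknown. At Sfi1 it was 847 in replicate 1 and 1209 in replicate 2, rank 5 and rank 3 of all peaks. The other 7 promoters had scores of 165 to 283 in replicate 1 and 210 to 317 in replicate 2. In replicate 1 they ran from Evi5l (283) through Gm15287 (257), Mtrf1l (254), Ccdc191 (196) and Slc25a42 (168) to Dmrt1i and Atf7 (165 each). In replicate 2 they ran from Ccdc191 (317) through Evi5l (261), Gm15287 (258), Dmrt1i (257), Mtrf1l (243) and Slc25a42 (220) to Atf7 (210). Ccdc191 and Dmrt1i therefore changed places with their neighbours between replicates, while Sfi1 was highest and Atf7 lowest or tied for lowest in both. The 8 peaks lay within the first 0.828% of the list in replicate 1 and the first 0.610% in replicate 2.

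**Figure D1:**
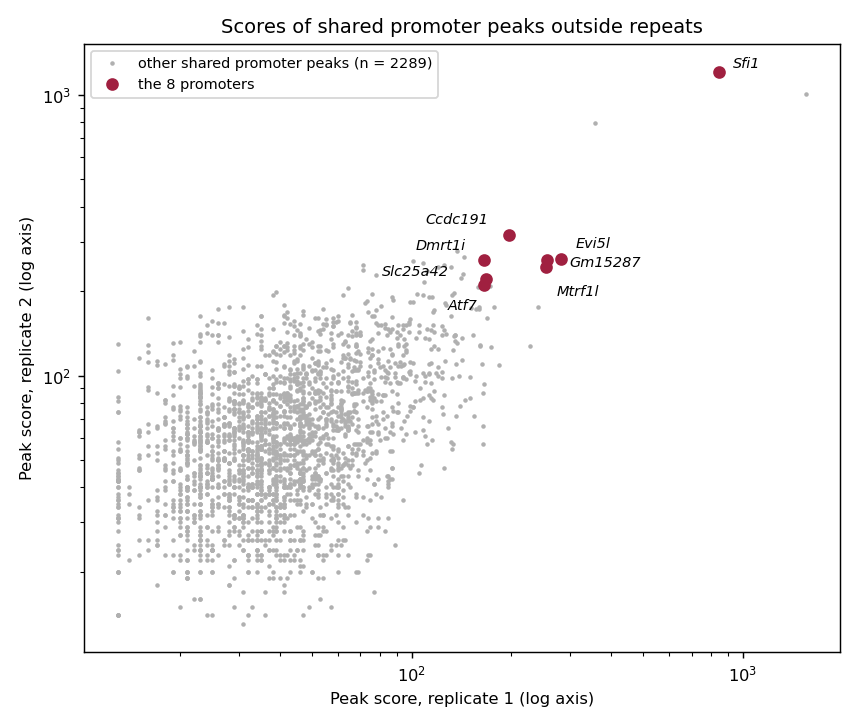
Peak score in replicate 1 (x axis, log scale) against replicate 2 (y axis, log scale) for overlapping peak pairs at promoters with less than 50% repeat sequence, with the 8 promoters in red and the other 2289 pairs in grey. Sfi1, at 847 and 1209, lies far above the other 7, which sit between 165 and 283 on the x axis and between 210 and 317 on the y axis.

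The choice has no sharp edge in these data. Pairs of overlapping peaks at promoters with under 50% soft-masked (repeat) bases numbered 2297, and they were ordered by the worse of their 2 ranks. Sfi1 came first, with a worse rank of 5, and Ccdc191, Evi5l, Gm15287, Dmrt1i and Mtrf1l took places 4 to 8, with worse ranks of 37, 46, 48, 51 and 58. The last of the 8 were Slc25a42 at place 9 (74) and Atf7 at place 11 (79). Between them, at place 10, lay a pair that is not among the 8, shared by Pdcd10 and Serpini1 (worse rank 79, scores 144 and 265). Just outside, at places 12 to 14, lay Aco1 (80, scores 172 and 209), Add3 (80, scores 143 and 230) and the pair shared by Gm20422 and Zfp866 (83, scores 159 and 206). Aco1 thus had a higher score than Atf7 in replicate 1 and a score lower by a single unit in replicate 2.

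Places 2 and 3 fell to loci that are not among the 8 and that were singled out here after their values were seen. They were the cluster of Gm10222, Gm28437, Gm28438 and Gm28439 on chromosome 1 (scores 1553 and 1006) and Gm10060 on chromosome 8 (358 and 793). Their bases were not soft-masked for the most part, but 94.2% and 94.6% of the 31-base words of the former peaks, and 74.0% and 69.3% of those of the latter, occurred elsewhere in the assembly. At the 8 promoters, 0% of the 31-base words of each of the 16 peaks occurred elsewhere, which the choice of unique sequence favours. The same 0% was found at Aco1, Add3 and the pair of Gm20422 and Zfp866, while the pair of Pdcd10 and Serpini1 had 4.29% and 0.988%. Soft-masked bases made up at most 9.84% of any of these peaks. Words were counted in the reference assembly, and copy number in the cells was not measured.

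The 8 promoters fell into those with the peak midpoint downstream of the reference TSS and those with it upstream. The reference TSS was the annotated start of the gene nearest to the middle of the stretch shared by both peaks, and negative distances are upstream in the direction of transcription. The midpoint was downstream in both replicates at Sfi1, Ccdc191, Gm15287 and Atf7, and upstream in both at Evi5l, Dmrt1i, Mtrf1l and Slc25a42. The former group includes a noncoding gene (Gm15287), and so does the latter (Dmrt1i).

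**Figure D2:**
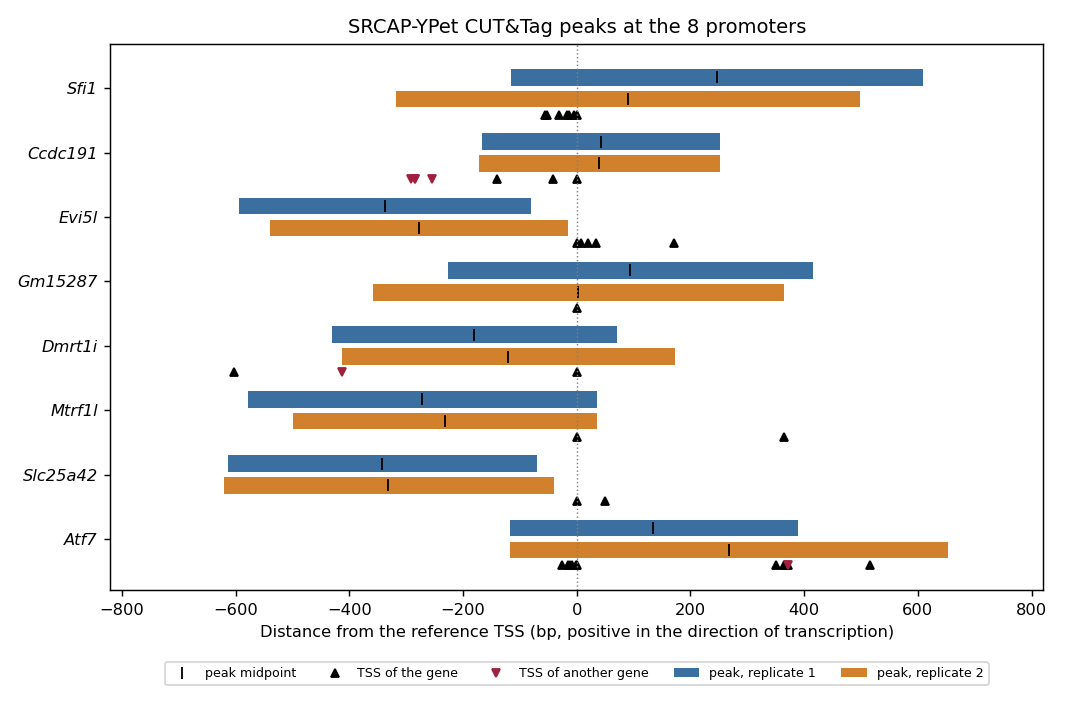
Extent of the main peak at each of the 8 promoters in replicate 1 (blue) and replicate 2 (orange), on an axis of distance from the reference TSS in bp, with ticks at peak midpoints and triangles at annotated TSSs of the gene (black) and of other genes (red). At Evi5l and Slc25a42 both peaks end upstream of the TSS, between −82 and −16 bp, while the other 6 promoters have a TSS inside both peaks.

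Sfi1 encodes a centrosomal protein that binds centrin. It lies on the minus strand of chromosome 11 (3131850 to 3193463), and 7 of its 18 annotated TSSs fall within 56 bp at this promoter. The peak spanned chr11:3192799-3193523 in replicate 1, a width of 725 bp, and chr11:3192909-3193724 in replicate 2, a width of 816 bp. All 7 starts were inside both peaks. Measured from the reference TSS at 3193407, the peak reached from −116 to 608 bp in replicate 1 and from −317 to 498 bp in replicate 2, with midpoints at 246 and 90 bp. The replicate 2 peak was thus displaced upstream at both borders, and its midpoint shifted by −156 bp, the largest shift among the 8. Introns made up 84.6% of the replicate 1 peak and 62.9% of the replicate 2 peak, UTRs 14.3% and 12.7%, and noncoding exons 1.10% and 24.4%. The noncoding gene Gm12735, on the same strand, ends 109 bp upstream of the reference TSS.

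Ccdc191, a coiled-coil protein gene, showed the closest match between replicates. Its peak spanned chr16:43889774-43890191 in replicate 1 (418 bp) and chr16:43889768-43890191 in replicate 2 (424 bp), so that the downstream border was at the same base and the upstream border differed by 6 bp. These were the narrowest of the 8 peaks in each list. The midpoints lay 43 and 40 bp downstream of the reference TSS at 43889940, and 3 of the 5 annotated starts of the gene, spread over 140 bp, were inside. Of the replicate 1 peak, 45.7% was UTR, 42.8% intron and 11.5% coding exon. Qtrt2, which encodes a subunit of the enzyme that places queuine in tRNA, starts on the opposite strand 255 bp upstream, outside both peaks. Both genes share this promoter window, and their gene bodies overlap.

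Gm15287 is a noncoding gene of the antisense class on the plus strand of chromosome 13, with 1 annotated start at 111725517. The peak spanned chr13:111725290-111725931 (642 bp) in replicate 1 and chr13:111725159-111725880 (722 bp) in replicate 2. The start lay inside both, 94 bp and 3 bp upstream of the midpoints. Of the replicate 1 peak, 43.0% was intron, 35.4% lay outside genes and 21.7% was noncoding exon, against 31.2%, 49.6% and 19.3% in replicate 2. The unitary pseudogene Gm15488 starts 1183 bp upstream on the opposite strand, and its promoter window reached only the upstream end of this peak. The promoter window of no coding gene reached the peak.

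Atf7, a bZIP transcription factor of the ATF family, had the most crowded start region. Its 12 annotated TSSs include 11 within 542 bp, of which 10 lay inside the replicate 1 peak and 11 inside the replicate 2 peak. The peak spanned chr15:102625049-102625556 (508 bp) in replicate 1 and chr15:102624786-102625556 (771 bp) in replicate 2. On this minus-strand gene the upstream border was the same base in both, −118 bp from the reference TSS, and the downstream border lay at 389 and 652 bp. UTR made up 81.9% of the replicate 1 peak and 66.7% of the replicate 2 peak. The coding gene Gm28047 starts on the same strand 371 bp downstream and shared the peak. The replicate 2 midpoint was 267 bp from the reference TSS but −83 bp from another Atf7 start, which shows how far a distance depends on the start chosen here.

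Evi5l encodes a TBC-domain protein of the family that switches off Rab GTPases. Its peak lay wholly upstream of every annotated start, at chr8:4165973-4166485 (513 bp) in replicate 1 and chr8:4166027-4166551 (525 bp) in replicate 2. It reached from −594 to −82 bp and from −540 to −16 bp from the reference TSS at 4166567, with midpoints at −338 and −278 bp. All of its bases were intronic, since the antisense gene 4932443L11Rik (chr8:4162522-4206882) runs across the Evi5l promoter. Evi5l was the only one of the 8 with another promoter peak, at an internal start at 4206249, which is 39682 bp into the gene. That peak was 508 bp wide with a score of 33 (rank 2886) in replicate 1 and 495 bp wide with a score of 36 (rank 6175) in replicate 2. Its midpoints were −24 and −13 bp from the internal start. 4932443L11Rik starts on the other strand at 39720 bp, so the weaker peak covered an opposed pair of starts and the strong peak covered none.

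Slc25a42 encodes a mitochondrial carrier of coenzyme A. The peak was at chr8:70212376-70212918 (543 bp) in replicate 1 and chr8:70212346-70212925 (580 bp) in replicate 2, and all of it lay outside annotated genes. Borders were at −613 and −71 bp in replicate 1 and at −620 and −41 bp in replicate 2, with midpoints at −342 and −331 bp. The nearest start on the opposite strand, of Sugp2, lay 21921 bp away. Slc25a42 was thus a one-way promoter with the peak beside and not over its 2 annotated starts, which lie 49 bp apart.

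Mtrf1l encodes a release factor of mitochondrial translation. Its peak was at chr10:5823875-5824488 (614 bp) in replicate 1 and chr10:5823875-5824409 (535 bp) in replicate 2. The downstream border was the same base in both, 35 bp into the gene, and the upstream border lay at −578 and −499 bp. The reference TSS at 5823910 was inside, and 94.1% and 93.3% of the bases lay outside genes. The nearest opposite-strand start was 88091 bp away, the farthest among the 8.

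Dmrt1i is a noncoding gene annotated as sense intronic, within the long coding gene Bri3 (chr5:144244437-144446757). The peak was at chr5:144358095-144358595 (501 bp) in replicate 1 and chr5:144358112-144358697 (586 bp) in replicate 2. Midpoints were at −180 and −120 bp from the start at 144358525, and the other start of the gene, 602 bp upstream, lay outside both peaks. Baiap2l1, which encodes a membrane and actin-binding protein, starts on the opposite strand at 144358112, 413 bp upstream, which is the first base of the replicate 2 peak and lies within that of replicate 1. The peak thus covered an opposed pair of starts of a coding and a noncoding gene. The Bri3 promoter itself, 103291 bp from the Dmrt1i starts, had no peak in either list.

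Promoters with starts on both strands were a minority of the 8 by their reference TSS. By the reference TSS, 2 of 8 (25%), Ccdc191 and Dmrt1i, had one within 1000 bp, and Gm15287 made 3 within 2000 bp. Counted from any TSS of the gene, it was 4 of 8 (50%), against 43.5% of the 3126 genes with a promoter peak in both replicates. A TSS of any gene lay inside the peak at 6 of 8 promoters (75%) in each replicate, against 69.2% and 78.3% of the other 2289 pairs. The midpoint was upstream of the nearest TSS at 4 of 8 in replicate 1 and 5 of 8 in replicate 2, against 48.0% and 50.1%. Both counts differed from the shares of the other pairs by no more than 1 promoter.

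Width and match between replicates come from the same peak calls as the scores and are given only as a description. The 8 peaks had a median width of 528 bp in the first replicate and 583 bp in the other, a mean of 555.5 ± 38.9 bp (SD, n = 2). Among the other pairs the medians were 374 bp (quartiles 296 and 495) and 487 bp (364 and 644). The overlap of the replicate peaks as a share of their union ranged from 0.659 at Atf7 and 0.664 at Sfi1 to 0.936 at Slc25a42 and 0.986 at Ccdc191, with a median of 0.798 against 0.613. A border at the same base in both lists was found at 3 of 8 promoters (Ccdc191, Mtrf1l and Atf7) and in 213 of 2289 other pairs (9.31%). From the midpoint to the nearest TSS the median distance was 213 bp, then 105 bp in replicate 2 (159 ± 76.4 bp, SD, n = 2), against 107 and 104 bp. The midpoint lay nearer to a TSS in replicate 2 than in replicate 1 at all 8 promoters, from 43 and 40 bp at Ccdc191 to 246 and 90 bp at Sfi1. The same count was not made for the other pairs, so it cannot be called particular to the 8.

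The 8 peaks were GC-rich but not more so than other promoter peaks of these lists. Their median GC content was 62.3% in replicate 1 and 60.2% in replicate 2 (61.2% ± 1.48, SD, n = 2), against 64.3% and 63.9%. Evi5l was lowest, at 50.1% and 51.0%, and Dmrt1i highest, at 67.9% and 67.1%. The ratio of observed to expected CpG, a measure of how far CpG has been kept from loss, had a median of 0.650 and 0.654 against 0.751 and 0.750. It was 0.738 and 0.824 at Sfi1, and 0.531 and 0.530 at Ccdc191. Of the 16 peaks, that of Sfi1 in replicate 2 was the only one above the median of the other pairs in its list.

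**Figure D3:**
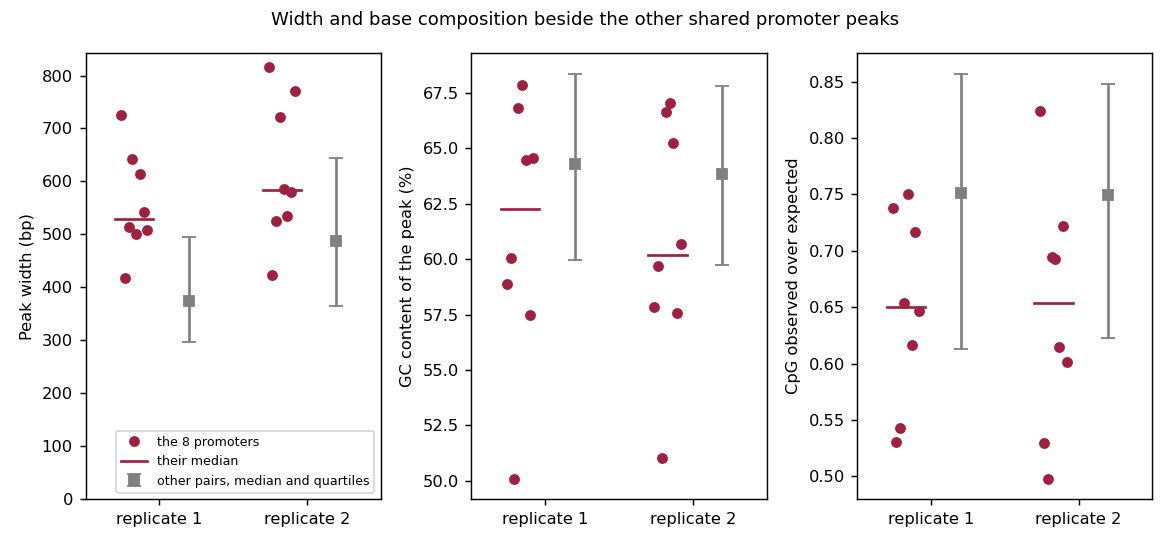
Peak width in bp, GC content in percent and the observed over expected CpG ratio for the 8 promoters (red points, median as a red line) in each replicate, beside the median and quartiles of the other 2289 pairs (grey). The red medians for width, 528 and 583 bp, lie above the grey ones, and those for the CpG ratio, 0.650 and 0.654, lie below.

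Short motifs were searched on both strands in the 300 bases at the middle of the shared stretch, in these 8, in the other 2289 pairs and in 32817 RefSeq promoters of the same length. CCAAT, the box bound by the trimeric factor NFY, was present at 6 of 8 (Evi5l, Gm15287, Dmrt1i, Mtrf1l, Slc25a42 and Atf7), against 38.1% of the other pairs and 37.4% of RefSeq promoters. GGGCGG, the GC box of SP1 and KLF factors, was present at 6 of 8 (Ccdc191, Evi5l, Gm15287, Mtrf1l, Slc25a42 and Atf7), against 66.5% and 35.6%. Evi5l, Gm15287, Mtrf1l, Slc25a42 and Atf7 held both. A match is a run of letters and does not show that the factor bound.

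In the sequences printed above, Slc25a42 holds 5 CCAAT boxes, 3 as ATTGG and 2 as CCAAT, spread from −426 to −221 bp. One of them, at −259 to −255 bp, directly adjoins CCGGAAG, the core of ETS factor motifs, at −254 to −248 bp. CCGGAAG was found at no other promoter of the 8, and in 12.8% of the other pairs and 8.86% of RefSeq promoters. Mtrf1l holds 2 CCAAT boxes, at −325 to −321 and −260 to −256 bp, and 3 GC boxes between −354 and −123 bp. At Gm15287 a GC box at 35 to 40 bp and a CCAAT box at 51 to 55 bp lie just downstream of the start. At Evi5l a CCAAT box at −337 to −333 bp and a GC box at −316 to −311 bp sit near the midpoint of the replicate 1 peak at −338 bp.

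Sfi1 held none of the 11 motifs listed at the outset. After its sequence had been seen, the CTCF core letters CCACCAGGG were added to the search. CTCF is a zinc finger protein known for its role at insulators and loop anchors. The letters occur at chr11:3193092-3193100, opposite to the gene strand and 307 to 315 bp downstream of the start, and appear in the Sfi1 line as CCCTGGTGG. They were found at no other promoter of the 8, in 0.568% of the other pairs and in 0.646% of RefSeq promoters. The remaining 8 motifs had no match at any of the 8. They were TATAAA (the TATA box, in 2.62% of the other pairs), GCATGCGC (NRF1, 3.67%), AAGATGGCG (YY1, 2.80%), CTCGCGAG (ZBTB33, 1.88%), TGACGTCA (CREB and ATF factors, 1.70%), CACGTG (the E-box, 7.56%), ATGCAAAT (the octamer, 0.874%) and CTACAATTC (ZNF143, 0.262%). In RefSeq promoters the same letters occurred in 13.6%, 2.71%, 1.40%, 0.920%, 1.79%, 7.15%, 1.74% and 0.357%. No motif of the set contains another.

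The neighbourhoods of the strong peaks held few other peaks in replicate 1 and more in replicate 2. Within 50 kb of the reference TSS, replicate 1 had another peak at 3 of the 8 promoters (Sfi1, Evi5l and Mtrf1l, 1 each). Replicate 2 had another peak at 6 of them, and none was found at Ccdc191 or Dmrt1i in either list. Measured from the peak midpoints, these counts were again 3 of 8 (37.5%) and 6 of 8 (75%), against 33.1% and 55.3% of the other 2289 pairs. Replicate 2 holds 2.10 times as many peaks as replicate 1, and read depth was unknown, so a peak missing from a list does not show that SRCAP was absent.

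**Figure D4:**
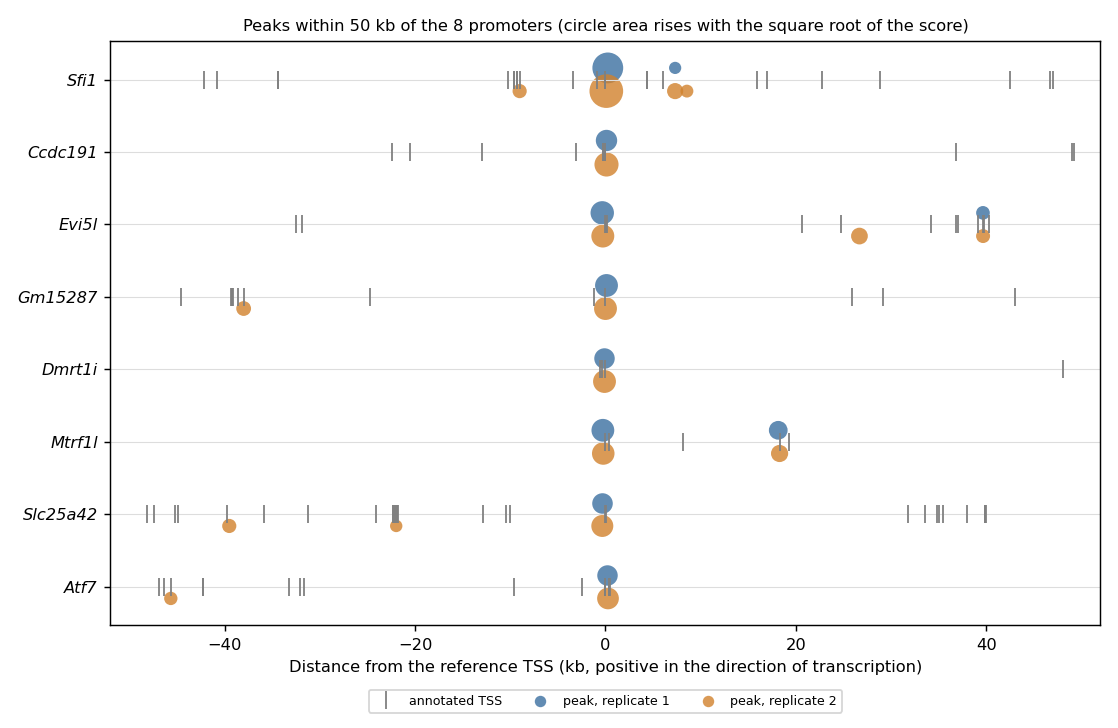
All peaks within 50 kb of the reference TSS of each of the 8 promoters, in replicate 1 (blue, above the line) and replicate 2 (orange, below), with annotated TSSs as grey ticks and circle area rising with the square root of the score. The main peaks at 0 carry the largest circles, which the choice by score favours. The strongest other peak is that of Fbxo5 near Mtrf1l (scores 116 and 82), and Ccdc191 and Dmrt1i have no other peak.

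Near Mtrf1l, the next gene downstream on the same strand is Fbxo5, which encodes an inhibitor of the anaphase-promoting complex. Its promoter peak had a score of 116 in replicate 1 (484 bp wide) and 82 in replicate 2 (1183 bp wide), 18152 and 18292 bp from the Mtrf1l start. In each list this was the highest score of any other peak within 50 kb of the 8 promoters. Upstream, the body of Rgs17, a regulator of G-protein signalling, ends 1753 bp from the Mtrf1l start, and its own promoter had a peak in replicate 2 only (score 41).

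Around Sfi1, both replicates had a peak inside the gene that began at the same base (3185890), 7321 and 7319 bp downstream, with scores of 21 and 64. Replicate 2 also had a peak at 8558 bp (score 26) and one at the promoter of Eif4enif1 (score 38), which encodes a transporter of the cap-binding protein eIF4E and starts 8985 bp upstream on the opposite strand. Drg1, a GTP-binding protein gene whose body overlaps Sfi1, had a promoter peak of score 105 in replicate 2 alone. These scores are all far below the 847 and 1209 of the Sfi1 promoter, which was chosen for its high scores.

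At the other 6 promoters, neighbouring genes that do not share the main peak had weaker peaks or none. Qtrt2, Gm15488, Baiap2l1 and Gm28047 share it, as described above, Gm15488 only at the upstream end of the peak. Map3k1 and Mier3, the coding genes downstream and upstream of Gm15287, had promoter peaks in replicate 2 only (scores 41 and 45). Zdhhc23, a palmitoyltransferase gene that ends 719 bp beyond the end of Ccdc191, had scores of 35 and 64 at its own promoter, and Drd3 had none. Within Evi5l, replicate 2 alone had a peak of score 74 at 26682 bp, outside the promoter windows. Prr36, which overlaps the end of Evi5l, had scores of 29 and 50, while Cd209g and Lrrc8e had no peak. Upstream of Slc25a42, replicate 2 alone had a peak of score 22 in the shared promoter window of Armc6 and Sugp2, 53 bp past a Sugp2 start, and one of score 38 at −239 bp from another Sugp2 start. Tmem161a, whose end lies 659 bp from that of Slc25a42, had none. Atp5g2, upstream of Atf7, had a score of 30 in replicate 2 only, and Npff had none. Nptx2, 184854 bp downstream of Dmrt1i, had a score of 24 in replicate 2. In each of these cases the promoter of the neighbour scored below the main peak in the same list.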

How the data were processed

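CUT&Tag of SRCAP-YPet was available for 2 replicates of SYAT cells. The deposited files list peaks and a score for each, which the authors called with MACS2 one sample at a time. The labels name STAR, Picard and MACS2 and the builds mm10 and dm6. The methods of the study describe unique alignment, removal of duplicates and downsampling by the Drosophila reads. The reporting form of the study shows peak calling against an input sample but does not say whether this covers CUT&Tag. The files hold no read numbers, so depth and counting error are unknown. Genes came from GENCODE mouse release 21 and bases from GRCm38.

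Peaks were paired if they overlapped by at least 1 bp. The reference TSS of a gene was its annotated start nearest to the middle of the stretch shared by both main peaks. The 8 genes, the gene and motif lists and the alternatives were chosen with earlier results of these data known, so no test was run. By rule the text names the 8 genes, the genes of the 4 best-ranked pairs after places 2 and 3 that are not among the 8, and the neighbours of each promoter. The genes at places 2 and 3 are named besides, after their values were seen. One motif (CTCF) and one alternative (without pairs mostly found elsewhere in the assembly) were added after seeing the data. Words of 31 bases were counted on both strands of 66 assembly sequences, without patches and strain contigs. RefSeq promoters on the same assembly served for motif shares. The code was tested on simulated data. Python 3.11.15, numpy 2.4.6, pandas 2.3.3, pysam 0.24.0, numba 0.67.0, matplotlib 3.10.9 and samtools 1.23.1 were used.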

Additional observations from a re-analysis of the deposited data

How the results depend on the processing

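Of 28 alternatives over 6 results, 25 stayed within the bounds for their kind (1 SD between replicates for a median, 1.5-fold for a count) and 3 moved. Some of the 25 could not have moved, so their number does not measure stability. A promoter peak in both lists was fixed by the choice, and the lowest score of the 8 was 165. A minimum score of 50, or either list alone, therefore had to leave all 8. Ranking by peak width in place of the score put 0 of the 8 promoters among the first 8 pairs, against 6 (the cause was not tested). With TSSs of protein-coding transcripts only, the median distance from midpoint to TSS was 257 bp, against 159 bp, because the starts of Gm15287 and Dmrt1i are then not counted. Measured from the nearest peak border, with 0 for a TSS inside the peak, it was 0 bp. Protein-coding transcripts also left 6 promoters with a peak in both lists, and a TSS inside the peak left 7, with Evi5l counted through its internal peak. Either list alone put 4 of the 8 among its first 8 pairs, and leaving out pairs mostly found elsewhere in the assembly, chosen after seeing the data, put 7 there. Leaving out a replicate gave median widths of 528 to 583 bp, distances of 105 to 213 bp and GC contents of 60.2 to 62.3%. A mean of 2 values is always within 1 SD of either, so these ranges do not speak to stability. No paired analysis was possible because both samples form 1 group. Scores depend on a depth that is unknown, and motif matches and annotation describe the assembly, not the cells.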

Other observations

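The promoter windows around the 8 peaks differed in composition from the peaks themselves. Over the whole window, 1000 bp before to 500 bp after the reference TSS, GC content ranged from 50.0% at Ccdc191 and 51.4% at Sfi1 to 64.0% at Dmrt1i. In both replicates the peak held more GC than its window at 6 of the 8 promoters, for example 66.8% and 66.6% against 56.6% at Gm15287. The share of the other pairs with such a difference was not counted, so it cannot be called particular to the 8. The exceptions among the 8 were Evi5l, with 58.2% in the window against 50.1% and 51.0% in its peaks, and Slc25a42, with 58.7% against 57.5% and 57.6%. Soft-masked bases made up 21.6% of the Atf7 window and 2.07% of the Dmrt1i window.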
